A study of Mus musculus with 9 samples.

Results

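The TAM receptors Axl, Mertk and Tyro3, their ligands Gas6 and Pros1, and the Siglecs Siglec1, Siglece and Cd33 were followed as 8 genes among the 54532 in the expression table of LPS-treated macrophages. They were taken by gene name. Axl and Siglec1 were chosen by their FPKM, because they were higher with LPS than in control cells and lower again with G-CDs, so their levels are a description without a test. The other 6 are their close relatives and ligands, named whatever their values. The cells were RAW264.7, a mouse macrophage line that the labels give as wild type and as coming from ascites. There were 3 libraries in each of 3 groups, which were control cells, cells given LPS (bacterial lipopolysaccharide) at 1 μg/ml, and cells given the same LPS with G-CDs, carbon dots made from *Glycyrrhiza* (licorice), at 400 μg/ml. Both treatments lasted 6 h. The treatment label of the last group gives LPS only, while its titles name G-CDs and the design text gives both agents. A group with G-CDs but no LPS was not analysed here, so G-CDs were compared only in the presence of LPS.

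TAM receptors are receptor tyrosine kinases of phagocytes. Gas6 and protein S, the product of Pros1, bind phosphatidylserine on dying cells with their carboxylated end and the receptor with the other, and thereby tether the dying cell for engulfment. Signaling through the receptors also dampens cytokine production after Toll-like and interferon receptors have fired. In many mouse macrophages Mertk is the receptor present at rest and Axl the one that inflammation induces. Siglecs are lectins that read sialic acid on glycans. Siglec1 (CD169, sialoadhesin) has a long extracellular part and no inhibitory motif, serves in adhesion and in the capture of sialylated particles, and is widely used as a marker of interferon exposure. Siglece and Cd33 are shorter proteins of the CD33-related group, and Siglece carries inhibitory tyrosine motifs that recruit phosphatases.

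The stretch of DNA just before the transcription start is shown for Axl, the TAM receptor with the widest range over the groups, and for Siglece and Pros1, the only members in which a searched motif was found. The sequences are from RefSeq (GRCm38.p6), are written 5′ to 3′ on the strand of the gene, cover the 250 bases before the start, and carry a motif match in capitals. The Axl window is chr7:25788734-25788983 (minus strand), that of Siglece chr7:43660162-43660411 (minus strand) and that of Pros1 chr16:62854057-62854306 (plus strand).
Axl: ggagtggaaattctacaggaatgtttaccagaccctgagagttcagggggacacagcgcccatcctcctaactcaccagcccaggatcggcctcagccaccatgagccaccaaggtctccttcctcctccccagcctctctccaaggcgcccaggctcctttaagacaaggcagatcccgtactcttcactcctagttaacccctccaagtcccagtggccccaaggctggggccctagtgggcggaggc
Siglece: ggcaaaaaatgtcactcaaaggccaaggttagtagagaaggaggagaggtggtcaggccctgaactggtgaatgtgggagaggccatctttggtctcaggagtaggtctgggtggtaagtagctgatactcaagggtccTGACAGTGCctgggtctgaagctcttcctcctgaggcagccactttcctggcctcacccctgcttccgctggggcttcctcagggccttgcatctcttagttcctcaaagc
Pros1: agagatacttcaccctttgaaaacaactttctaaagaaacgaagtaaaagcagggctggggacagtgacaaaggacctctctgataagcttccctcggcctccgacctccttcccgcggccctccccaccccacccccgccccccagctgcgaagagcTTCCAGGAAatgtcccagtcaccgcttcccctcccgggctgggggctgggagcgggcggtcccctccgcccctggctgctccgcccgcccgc

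A promoter entry was found for 7 of the 8 members, and Siglec1 was the exception. The windows of Cd33 (chr7:43533172-43533421) and Tyro3 (chr2:119799264-119799513) lie inside the gene spans of the expression table. What is said of these 2 windows holds for that RefSeq start alone. Motifs were searched on both strands from 250 bases before to 50 bases after the start. The core of the interferon-stimulated response element (GAAANNGAA) was in 0 of the 7 member promoters and in 8.53% of 32544 mouse promoters of this length. The AP-1 site (TGACTCA) was also in 0 of the 7, against 5.19% of all. The STAT site (TTCNNNGAA) was present in Pros1 alone, from 92 to 84 bases before the start, and in 8.33% of all promoters. The core of the antioxidant response element (TGACNNNGC), the sequence read by Nrf2, was present in Siglece alone, from 111 to 103 bases before the start, and in 12.4% of all promoters. An AP-1 site followed by GC would be counted under both names. The GC content of the 250 bases was 60% for Axl, 55.2% for Siglece, 64.4% for Pros1 and 73.2% for Tyro3, the highest of the members, beside a median of 52.4% for all promoters. These matches describe letters in a short window and not binding.

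The values are FPKM, reads scaled to gene length and library size, so levels can be set side by side between genes. Each library had 14752400 to 17312255 reads on genes. Worked back with gene length and library size, the FPKM values came out as whole reads (to within 0.05), and the reads behind each level are given. A count of 0 in a library allows up to 3 reads, and this covers counting error only. Tests were run with limma on log2(FPKM + 1) over the 11585 genes that reached 1 FPKM in 3 or more libraries, and a log2 change below is on that scale, which understates changes of low genes. The macrophage identity of the line was checked with 10 markers, of which 10 passed the filter, with a summed level of 2666 to 5342 FPKM. The T cell, B cell, fibroblast and epithelial or endothelial lists summed to at most 1.17 FPKM in any library, with Cd8a, Ms4a1, Epcam and Cdh1 at 0 throughout. The 4 neutrophil markers summed to 0.154 to 0.592 FPKM in control, 0.198 to 0.73 in LPS and 0.797 to 2.15 in LPS + G-CDs, with the defining Ly6g and Elane at 0 in all 9 libraries. The legend of the study's RNA-seq figure, which also holds blots, names 3 independent experiments without tying them to the libraries. Whether the libraries of a group came from separate cultures is not stated. The p-values therefore measure the spread between these libraries, which may be technical.

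Of the 8 members, 5 passed the filter and 3 (Mertk, Tyro3 and Gas6) did not. Axl and Siglec1 passed it through the libraries with LPS only, since all their control values were below 1 FPKM. Siglece, Cd33 and Pros1 were at 1.26 FPKM or more in every library. In LPS against control, 15.8% of the tested genes were called higher and 15.6% lower at a Benjamini-Hochberg adjusted p under 0.05. Of the 3 members taken by name that were tested, 1 was called higher (Siglece) and 2 lower (Cd33 and Pros1), so a call in this comparison was common and is read for each gene by itself. In LPS + G-CDs against LPS, 0.25% of genes were called higher and 0.242% lower, and 0 of the same 3 members were called by limma, 0 of them by voom on the reads, and 1 of them (Siglece) had an unadjusted p under 0.05, beside 1765 of all tested genes. The 57 calls of that comparison became 11 to 256 when 1 library was left out, with 256 reached without replicate 1 of LPS + G-CDs and 11 without replicate 2. In LPS + G-CDs against control, 12.8% were called higher and 12.4% lower. The same 3 members were called there too, in the same directions as with LPS alone, but both comparisons rest on the same 3 control libraries. TPM scaling moved the share of calls that were higher from 50.3% to 24.7% in LPS against control and from 50.8% to 19.1% in LPS + G-CDs against control, and left the direction of the 5 members that passed the filter as it was.

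**Figure D1:**
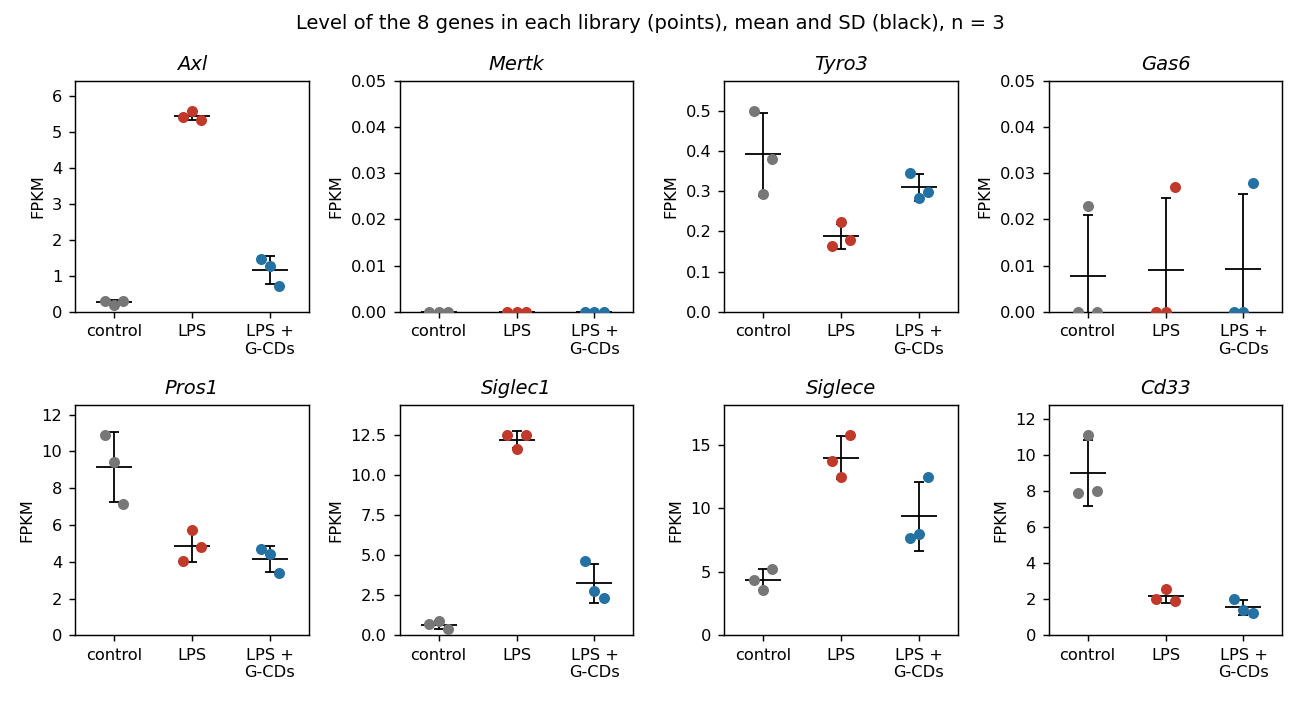
FPKM of the 8 genes (vertical axis of each panel, starting at 0 with its own range) in control, LPS and LPS + G-CDs libraries. Each point is a library, and the black marks give the mean and SD of 3 libraries. Axl and Siglec1 were high in LPS, Siglece was intermediate with G-CDs, Cd33 and Pros1 were low in both LPS groups, and Mertk and Gas6 lay at 0 to 0.0279 FPKM.

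Axl (ENSMUSG00000002602, chr7:25757273-25788705, minus strand, 5033 exonic bases) measured 0.307, 0.198 and 0.301 FPKM in the control libraries, from 29, 17 and 27 reads. With LPS it measured 5.43, 5.58 and 5.34 FPKM, from 378, 388 and 391 reads. With LPS + G-CDs it measured 1.48, 1.28 and 0.721 FPKM, from 108, 107 and 51 reads. The groups did not overlap in any comparison, and the order was LPS, then LPS + G-CDs, then control. Mean Axl was 20.3 times the control level with LPS (5.45 ± 0.121 against 0.269 ± 0.0612 FPKM, SD, n = 3). With G-CDs it was 1.16 ± 0.395 FPKM, so the LPS level was 4.69 times the level with G-CDs, which was itself 4.32 times control. On the log2(FPKM + 1) scale the differences were 2.35 for LPS minus control, -1.59 for LPS + G-CDs minus LPS and 0.75 for LPS + G-CDs minus control. As these are bulk libraries, fewer cells with the transcript and less transcript per cell cannot be told apart.

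Mertk (ENSMUSG00000014361, chr2:128698956-128802894), the TAM receptor linked most closely to the uptake of dying cells by resting macrophages, had 0 reads in all 9 libraries. The 3 reads that a count of 0 allows correspond to at most 0.0501 FPKM in any library, far under the LPS level of Axl. Tyro3 (ENSMUSG00000027298, chr2:119797733-119818104), best known from neurons, was present at a low level. It measured 0.499, 0.294 and 0.381 FPKM in control, 0.163, 0.222 and 0.178 with LPS, and 0.346, 0.282 and 0.299 with LPS + G-CDs, from 14 to 58 reads per library. Every LPS value lay below every control value and below every LPS + G-CDs value, while control and LPS + G-CDs overlapped. The control mean was 2.08 times the LPS mean, and the mean with G-CDs was 1.64 times the LPS mean. The exact two-sided permutation test gave p = 0.1 for LPS against control, 0.1 for LPS + G-CDs against LPS and 0.3 for LPS + G-CDs against control, and 0.1 is the smallest p that 3 against 3 libraries allow. With voom over all genes with at least 10 reads in 3 libraries, a fit added after the data were seen, the log2 change of Tyro3 was -1.02 (SE 0.33, adjusted p = 0.036) for LPS against control and 0.70 (SE 0.34, adjusted p = 0.33) for LPS + G-CDs against LPS. Without the low-value filter, limma gave adjusted p = 0.052 and 0.5 for the same comparisons.

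The make-up of the TAM receptor transcripts is given as shares of the summed level. Axl held 40.9% ± 3.1 (SD, n = 3) of the receptor FPKM in control, 96.7% ± 0.46 with LPS and 77.9% ± 6.3 with LPS + G-CDs. Tyro3 held the rest, 59.1%, 3.32% and 22.1%. The sum of the receptors was 0.66 ± 0.158 FPKM in control, 5.64 ± 0.147 with LPS and 1.47 ± 0.413 with LPS + G-CDs. Tyro3 was the larger part in each control library and Axl in each library with LPS. Because Axl was chosen for its values, these shares carry no test.

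The ligands differed from each other in level by far. Gas6 (ENSMUSG00000031451, chr8:13465374-13494490), the ligand that binds the TAM receptors most broadly, had 1 read in control replicate 2, in LPS replicate 3 and in LPS + G-CDs replicate 3, and 0 reads in the other 6 libraries. All of these counts lie within what a count of 0 allows, and a change of Gas6 was not detectable at this depth. Gas6 also shares 34 exonic bases, 1.33% of its length, with Tmem255b on the plus strand. No other member shares exonic bases with another gene in GENCODE mouse release 21, whose coordinates for the 8 members equal those of the table.

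Pros1 (ENSMUSG00000022912, chr16:62854307-62929346), the gene of protein S, which is also a cofactor of anticoagulation, was the ligand with reads. It measured 10.9, 9.44 and 7.13 FPKM in control, 4.04, 5.74 and 4.78 with LPS and 4.67, 4.42 and 3.38 with LPS + G-CDs. All control values lay above all values of both LPS groups, which overlapped with each other. Pros1 fell by 0.79 on the log2 scale with LPS (SE 0.18, limma adjusted p = 0.01, n = 3), from a mean of 9.17 to 4.85 FPKM. With LPS + G-CDs it was 4.16 FPKM and lower than control by a log2 change of -0.97 (SE 0.18, limma adjusted p = 0.0042). LPS + G-CDs minus LPS gave -0.18 (SE 0.18, limma adjusted p = 0.55), with a 95% interval of -0.59 to 0.23.

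Siglec1 (ENSMUSG00000027322, chr2:131069220-131086765, 7143 exonic bases) measured 0.709, 0.888 and 0.393 FPKM in control, from 50 to 108 reads. With LPS it measured 12.5, 11.6 and 12.5 FPKM, from 1143 to 1303 reads. With LPS + G-CDs it measured 4.63, 2.76 and 2.36 FPKM, from 237 to 478 reads. The order of the groups was that of Axl, again without overlap. The LPS mean (12.2 ± 0.534 FPKM) was 18.4 times the control mean (0.663 ± 0.251) and 3.75 times the mean with G-CDs (3.25 ± 1.21), and the last was 4.9 times control. The differences on the log2 scale were 3.0, -1.67 and 1.33 in the order LPS minus control, LPS + G-CDs minus LPS, and LPS + G-CDs minus control. Replicate 1 of LPS + G-CDs was the highest of its group for both Siglec1 and Axl, and replicate 3 the lowest for both.

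Siglece (ENSMUSG00000030474, chr7:43651070-43660161, 1849 exonic bases), an inhibitory Siglec of macrophages and neutrophils, measured 4.33, 3.56 and 5.22 FPKM in control and 13.7, 12.5 and 15.8 with LPS. It rose with LPS by 1.49 on the log2 scale (SE 0.20, limma adjusted p = 0.0005), 3.2 times in means. With LPS + G-CDs it measured 7.67, 7.98 and 12.5 FPKM. Replicate 3 of that group reached the LPS range, and the other 2 libraries lay between control and LPS. LPS + G-CDs minus LPS was -0.55 (SE 0.20, limma adjusted p = 0.29, 95% interval -1.0 to -0.11), which did not pass the threshold. Against control, LPS + G-CDs remained higher by 0.93 (SE 0.20, limma adjusted p = 0.008).

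Cd33 (ENSMUSG00000004609, chr7:43524216-43544428, 7771 exonic bases), the namesake of its group, moved the other way. It measured 7.90, 11.1 and 7.99 FPKM in control, 2.02, 2.56 and 1.91 with LPS and 2.02, 1.39 and 1.26 with LPS + G-CDs. Control lay above both LPS groups in every library, and those overlapped with each other. Cd33 fell by 1.65 on the log2 scale with LPS (SE 0.17, limma adjusted p = 0.00012), so that control was 4.15 times the LPS level. LPS + G-CDs minus LPS was -0.31 (SE 0.17, limma adjusted p = 0.35, 95% interval -0.70 to 0.07). LPS + G-CDs minus control was -1.96 (SE 0.17, limma adjusted p = 4.9e-05). Of the 50-base words of its longest transcript, 0.546% also occur in transcripts of other genes. Cd33 and Siglece lie 106641 bases apart on chromosome 7, on the same strand, and were called in opposite directions with LPS.

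Among the 3 Siglecs, Cd33 held 63.7% ± 6.7 of the summed FPKM in control, but 7.7% ± 1.7 with LPS and 11.1% ± 3.2 with LPS + G-CDs. Siglece held 31.6% ± 7.9, 49.2% ± 2.8 and 65.6% ± 12 in the same order of groups. Siglec1 held 4.7% ± 1.6, 43.1% ± 1.5 and 23.3% ± 8.9. Their sum was 14 ± 1.33 FPKM in control, 28.4 ± 1.84 with LPS and 14.2 ± 2.01 with LPS + G-CDs. The sums of control and LPS + G-CDs were thus close, while their make-up was not: Cd33 was the largest part in each control library and Siglece in each library of LPS + G-CDs. The closeness depends on the deposited scaling. The FPKM of all genes summed to 271284 to 314327 in control libraries and 333125 to 472870 in LPS + G-CDs libraries. These shares are a description, since Siglec1 enters each sum. The remaining 6 Siglec genes (Siglecf, Siglecg, Siglech, Siglec15, Cd22 and Mag) were all under the filter, with group means of 0.25 FPKM or less.

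**Figure D2:**
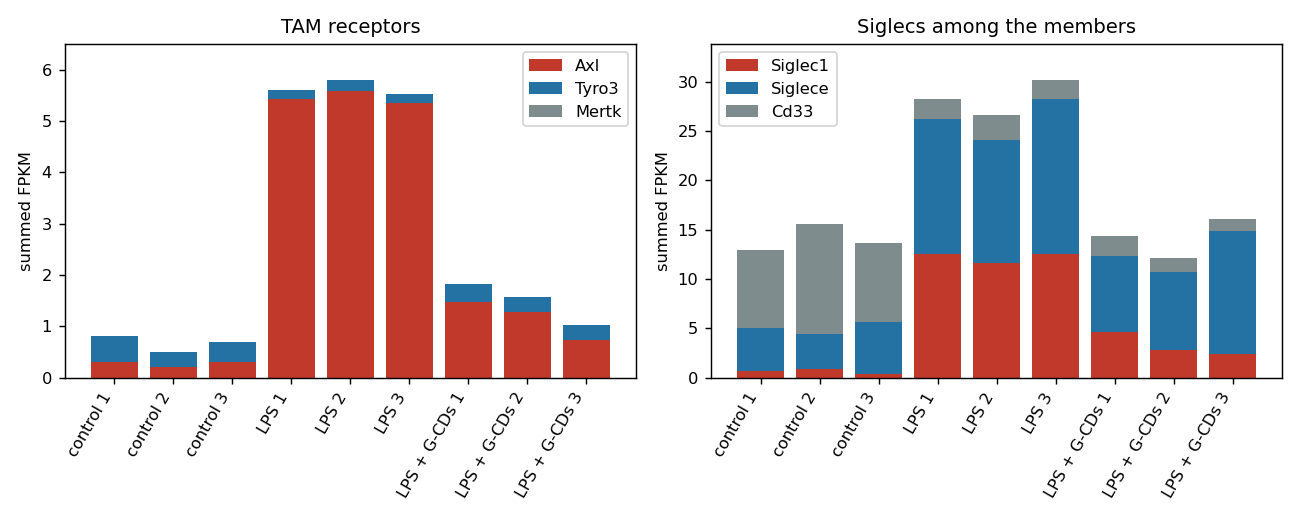
Summed FPKM (vertical axes, starting at 0) of the TAM receptors (left) and of Siglec1, Siglece and Cd33 (right) in each of the 9 libraries, with the part of each gene stacked. The TAM sum was mostly Axl in LPS libraries, and the Siglec sum was mostly Cd33 in control and mostly Siglece with LPS + G-CDs.

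Deviations of single libraries from their group mean followed gene length, most in the LPS + G-CDs group. There, all tested genes of the length of Siglece lay at -0.26, -0.02 and 0.28 on the log2 scale in replicates 1, 2 and 3, and Siglece itself at -0.23, -0.18 and 0.41. At the length of Siglec1 the trend was 0.16, 0.00 and -0.16, and Siglec1 lay at 0.44, -0.14 and -0.30. At the length of Cd33 it was 0.19, 0.00 and -0.19, and Cd33 lay at 0.25, -0.09 and -0.16. With a smooth curve over gene length removed from every library, an alternative added after the data were seen, the SD within LPS + G-CDs went from 0.36 to 0.14 for Siglece, from 0.22 to 0.08 for Cd33, from 0.39 to 0.25 for Siglec1 and from 0.28 to 0.23 for Axl. For Pros1 it went from 0.20 to 0.23. In the LPS libraries the trend at the lengths of these members lay between -0.02 and 0.03.

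The curve was fitted to deviations from the mean of all 9 libraries, so it also took out length-linked differences between groups. With the trend removed, Siglece passed the threshold in LPS + G-CDs against LPS, at -0.81 (SE 0.12, limma adjusted p = 0.018). Both its difference (-0.55 before) and its SE (0.20 before) had changed, so the call does not rest on the replicate spread alone. Cd33 gave -0.14 (SE 0.13, limma adjusted p = 0.57) and Pros1 -0.21 (SE 0.18, limma adjusted p = 0.52) in that comparison. The descriptive differences of Axl and Siglec1 were -1.56 and -1.52. What set the length trend was not tested.

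**Figure D3:**
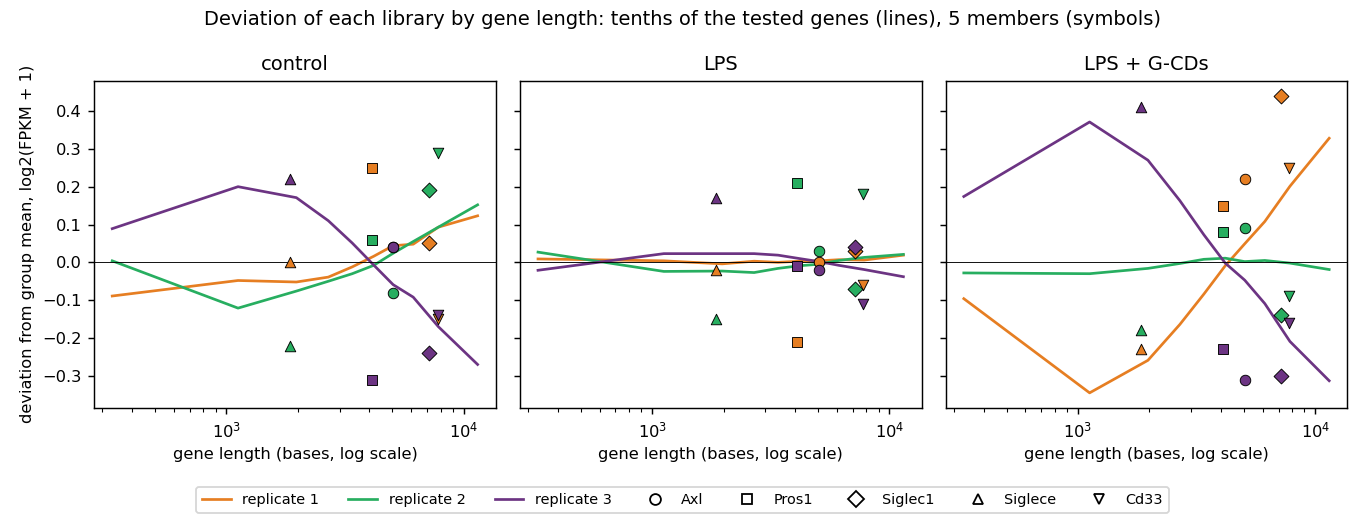
Deviation from the group mean in log2(FPKM + 1) (vertical axis) against gene length (horizontal axis, log scale) in the 3 groups. Lines give the median over bins of tested genes of like length in a library and symbols the 5 members that passed the filter. In LPS + G-CDs, replicates 1 and 3 tilt in opposite directions, and Siglece, Siglec1 and Cd33 lie on the side of their line in both.

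The genes nearest to Axl in profile were those with the smallest mean absolute difference in centred log2(FPKM + 1) over the 9 libraries. They were Spink5 (a protease inhibitor) at 0.17, Itgal (the alpha chain of the integrin LFA-1) at 0.19, Cd300e (a myeloid receptor) at 0.21, Fpr2 (a formyl peptide receptor) at 0.23 and Gm47922 at 0.27. Itgal had means of 2.72 FPKM in control, 19.3 with LPS and 8 with LPS + G-CDs. Spink5 had means of 7.63, 30.7 and 11.7 FPKM. For Siglec1 the nearest were Hivep3 (a zinc finger protein) at 0.14, Malt1 (a protease of NF-κB signaling) at 0.16, Itgal at 0.22, and Gm20234 and Tet2 (a DNA demethylation enzyme) at 0.26 each. Malt1 had means of 3.64, 38.5 and 15.1 FPKM. Axl and Siglec1 ranked 8 in each other's order, at 0.29. The likeness is a description over 9 libraries, which differ in depth and in their trend with gene length also within a group. On this scale the changes of low genes are understated, so near genes need not share a fold change. Mean Axl went from 0.269 to 5.45 FPKM with LPS, and mean Spink5 from 7.63 to 30.7.

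**Figure D4:**
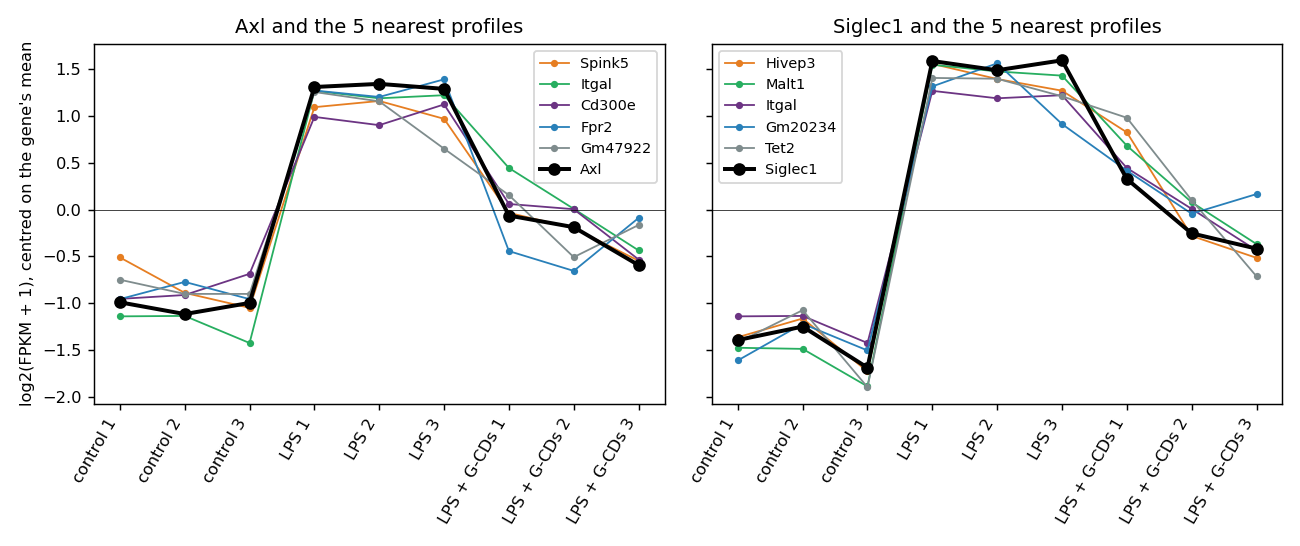
Level in log2(FPKM + 1), centred on the mean of each gene (vertical axis), over the 9 libraries for Axl (left) and Siglec1 (right) in black with the 5 nearest genes in color. Lines join libraries to guide the eye and imply no order among replicates. The shared shape is low in control, high in LPS and between them in LPS + G-CDs. It was fixed by the selection, since Axl and Siglec1 were picked for it and the other genes for their nearness.

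Genes that work beside the TAM receptors were taken from lists, with the median change of all tested genes at 0.02 in each comparison. Counts of rises and falls with LPS in these lists stand beside 15.8% and 15.6% of all tested genes, and counts at an unadjusted p under 0.05 beside 4849 of the 11585 genes in LPS against control and 1765 with G-CDs. Cd36, Socs1 and 9 of the interferon genes passed the filter with every control library under 1 FPKM, and Havcr2, Vkorc1 and St6gal1 with every LPS library under it. Such a gene had to differ between groups to be tested, so its call adds nothing to the count of its list. Of the other molecules that bridge or mark phosphatidylserine, 4 of 8 were tested, and with LPS 2 rose and 2 fell (median 0.06). Anxa1 (annexin A1) rose by 0.90 (SE 0.18, limma adjusted p = 0.0046), from 27.1 to 50.8 FPKM. Mfge8, a bridge to integrins, fell by 0.59 (SE 0.15, limma adjusted p = 0.015), a call lost under 2 of 18 alternatives, when LPS replicate 2 or 3 was left out. The other calls, Anxa5 (0.71) and Lgals3 (-0.81), were lost under 4 and 6 of 18, among them each LPS replicate left out. With G-CDs added to LPS, 0 of the 4 were called, 1 had an unadjusted p under 0.05 and 0 were called by voom (median 0.31).

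Of 16 other receptors for dying cells, 7 were tested, and with LPS 3 rose and 3 fell (median -0.60). These counts include Cd36 and Havcr2, which had to differ between groups to be tested, so both are given by their values alone. Cd36, a scavenger receptor, had means of 0.792 FPKM in control and 2.91 with LPS. Itgb5, a chain of an integrin that binds the Mfge8 bridge, fell by 1.70 (SE 0.15, limma adjusted p = 3.4e-05), from 16 to 4.19 FPKM. Havcr2 (Tim-3), a receptor for phosphatidylserine, had means of 3.98 FPKM in control and 0.602 with LPS. Calls of Itgav (0.80) were lost under 7 of 18 alternatives, among them each LPS replicate and control replicates 1 and 3 left out, and that of Cd300lf (0.60) with TPM scaling. Cd300a, an inhibitory receptor for phosphatidylserine, measured 5.80, 6.67 and 6.57 FPKM in control, 3.62, 3.53 and 4.41 with LPS and 6.83, 7.50 and 8.73 with LPS + G-CDs. It fell with LPS by 0.60 (SE 0.13, limma adjusted p = 0.007). It was the 1 gene of all these lists called in LPS + G-CDs against LPS, where it was higher by 0.84 (SE 0.13, limma adjusted p = 0.032, no overlap). That call was lost under 8 of 18 alternatives, including each LPS replicate left out (adjusted p = 0.21, 0.21 and 0.083) and replicates 2 and 3 of LPS + G-CDs left out (adjusted p = 0.18 and 0.091). Of the 7 receptors, 1 was called with G-CDs by limma, 1 by voom, and 3 had an unadjusted p under 0.05 (median 0.19).

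Of 5 genes for signals on the target cell and their reader, Cd47, the signal against engulfment, rose with LPS by 0.96 (SE 0.14, limma adjusted p = 0.00096). Sirpa, the receptor that reads Cd47, fell by 1.56 (SE 0.12, limma adjusted p = 1.5e-05), from 34.2 to 11 FPKM. Of 12 tested genes of the engulfment machinery, 0 rose and 1 fell with LPS, which was Elmo2 at -0.62 (SE 0.13, limma adjusted p = 0.0054), and the median was 0.03. With G-CDs, 0 of the 5 and 0 of the 12 were called by limma or voom, with 1 in each at an unadjusted p under 0.05.

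Among 11 tested genes of TAM signaling and its feedback, 3 rose and 2 fell with LPS (median -0.15). Socs3 rose by 5.34 (SE 0.15, limma adjusted p = 2.8e-08), from 6.07 to 282 FPKM. Socs1, counted among the 3 that rose, had means of 0.262 FPKM in control and 1.22 with LPS. It passed the filter through libraries with LPS only, so it is given without a test. Socs3 and Socs1 encode feedback inhibitors of cytokine receptors that TAM receptors are known to use. Pik3r2, a regulatory subunit of PI3-kinase, fell by 1.54 (SE 0.10, limma adjusted p = 8.4e-06), and the call of Ifnar2 (-0.37), an interferon receptor chain, was lost under 5 of 18 alternatives, all of them a library left out (control replicates 2 and 3 and each LPS replicate). Of 4 genes around the proteases that shed Axl and Mertk from the surface, 3 rose with LPS (median 0.95). Rhbdf2, which brings the protease Adam17 to the surface, rose by 2.33 (SE 0.14, limma adjusted p = 3.6e-06), from 14.1 to 74.7 FPKM, and Rhbdf1 by 1.03 (SE 0.12, limma adjusted p = 0.00023). Adam17 itself rose by 0.87 (SE 0.28, limma adjusted p = 0.043), a call lost under 8 of 18 alternatives, among them each LPS replicate and control replicates 2 and 3 left out. With G-CDs, 0 of 11 and 0 of 4 were called by limma or voom, with 1 in each at an unadjusted p under 0.05. Mean Rhbdf2 was 48.1 FPKM there (-0.63, SE 0.14, limma adjusted p = 0.13).

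The vitamin K cycle, which carboxylates Gas6 and protein S, had 3 of 4 genes tested and 0 called by limma or voom in LPS against control, with 1 at an unadjusted p under 0.05, where 4849 of the 11585 tested genes had one. With G-CDs 0 were called by either, with 2 at an unadjusted p under 0.05. Of the nuclear receptors known to control Mertk and of their targets, 7 of 10 were tested, and with LPS 2 rose and 1 fell. Abcg1, a cholesterol exporter, fell by 2.35 (SE 0.12, limma adjusted p = 1.2e-06), from 15.7 to 2.26 FPKM. Nr4a1 rose by 0.96 (SE 0.14, limma adjusted p = 0.00075). None of the 7 was called with G-CDs by limma or voom, with 2 at an unadjusted p under 0.05.

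On the side of the Siglecs, sialyltransferases place sialic acid on glycans and so make what Siglecs bind. Of 10 tested, 4 rose and 4 fell with LPS (median -0.02). St3gal1 rose by 3.05 (SE 0.19, limma adjusted p = 4.5e-06), from 3.16 to 33.3 FPKM, and St3gal6 by 1.55 (SE 0.16, limma adjusted p = 9.9e-05). The St3gal enzymes attach sialic acid in the α2,3 linkage. Of the 6 tested, 4 rose, St3gal2 fell by 0.54 (SE 0.16, limma adjusted p = 0.03), and St3gal5 was at -0.14 (SE 0.12, limma adjusted p = 0.43). St6gal1, which makes the α2,6 linkage, had means of 4.42 FPKM in control and 0.101 with LPS. It is counted among the 4 that fell, but it passed the filter through the control libraries only and is given without a test. St8sia4, a polysialyltransferase, fell by 1.73 (SE 0.18, limma adjusted p = 0.00014). With G-CDs, 0 of the 10 were called by limma or voom, and 1 had an unadjusted p under 0.05. Means with G-CDs were 25.4 FPKM for St3gal1, 14.2 for St3gal6 and 0.187 for St6gal1.

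Of 6 tested genes of sialic acid synthesis and transport, 1 rose and 3 fell with LPS (median -0.55). Npl, which breaks down free sialic acid, rose by 1.53 (SE 0.12, limma adjusted p = 2.5e-05), and Gne, which starts the synthesis, fell by 0.63 (SE 0.13, limma adjusted p = 0.005). The call of Slc17a5 (-0.50) was lost under 5 of 17 alternatives, including control replicate 2 and LPS replicates 1 and 3 left out, and that of Cmas (-0.60) without LPS replicate 2. With G-CDs 0 of the 6 were called by limma or voom, with 3 at an unadjusted p under 0.05, beside 1765 of 11585 genes. Of 2 tested sialidases 0 were called in either comparison by limma or voom, with 0 at an unadjusted p under 0.05. Of 3 tested Siglec ligands, 1 rose with LPS, Spn (CD43) by 1.02 (SE 0.12, limma adjusted p = 0.0003), and 2 fell, with Cd24a at -1.66 (SE 0.12, limma adjusted p = 9.5e-06) and Selplg at -0.73, a call lost without LPS replicate 2. With G-CDs 0 of the 3 were called by limma or voom, with 1 at an unadjusted p under 0.05. Of 8 listed adaptors, phosphatases and further signaling genes around Siglecs, such as Ptpn6, Tyrobp and Syk, 0 were called in either comparison by limma or voom. An unadjusted p under 0.05 was found for 2 of the 8 in LPS against control, beside 4849 of all 11585 tested genes, and for 2 of the 8 in LPS + G-CDs against LPS, beside 1765.

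Type I interferon genes were listed because Axl and Siglec1 are known to respond to interferon. With LPS 19 of 20 rose, with a median of 3.91, but 9 of them (Ifnb1, Ifit1, Ifit3, Mx1, Mx2, Rsad2, Oasl2, Cxcl10 and Zbp1) were tested only because they were high with LPS. Irf3 was the exception at -0.32 (SE 0.18, limma adjusted p = 0.22). Ifnb1, the gene of interferon β, had 0 reads in each control library, 10.1, 10.1 and 11.8 FPKM with LPS, and 6.46, 7.87 and 11.9 with LPS + G-CDs. Isg15 rose by 6.13 (SE 0.31, limma adjusted p = 1.4e-06) and Oasl1 by 5.01 (SE 0.17, limma adjusted p = 9.3e-08) with LPS. In LPS + G-CDs against LPS, 0 of the 20 were called by limma, 0 by voom and 6 had an unadjusted p under 0.05 (beside 1765 of 11585 genes), with 10 above 0, 10 below 0 and a median of 0.05. In that comparison Isg15 was at 0.65 (SE 0.31, limma adjusted p = 0.33) and Ifih1 at -0.51 (SE 0.14, limma adjusted p = 0.21), beside the descriptive differences of -1.59 for Axl and -1.67 for Siglec1. A difference between Axl or Siglec1 and these genes was not tested.

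**Figure D5:**
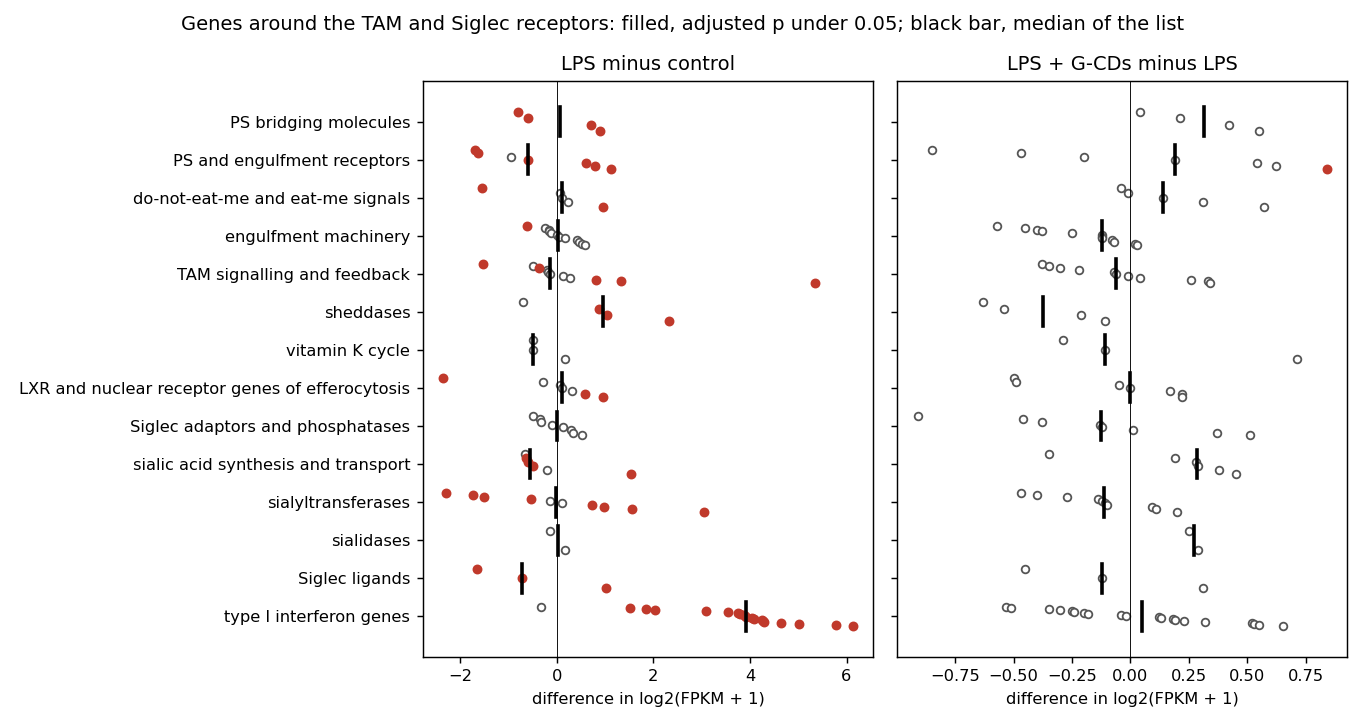
Difference in log2(FPKM + 1) (horizontal axes, with separate ranges) of the tested genes of each list for LPS minus control (left) and LPS + G-CDs minus LPS (right). Filled points passed an adjusted p under 0.05 and black bars give the median of the list. Type I interferon genes lie far to the right with LPS around a median of 3.91, and on the right panel 1 point, Cd300a, is filled.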

How the data were processed

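RNA-seq libraries were made from RAW264.7 cells, 3 per group. The authors enriched poly(A) RNA for Illumina sequencing and deposited the expression of each gene as FPKM. The submitters' processing notes list GRCm38 and mm10, and the aligner, counting method and annotation were not given in the sources used here. All value columns were matched to samples by name. Groups were taken from the sample titles.

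Reads were worked back from FPKM and gene length (14752400 to 17312255 per library). The library size that the authors divided by was 1.108 to 1.14 times these reads in control, 0.929 to 0.936 times in LPS and 0.88 to 0.98 times in LPS + G-CDs, so the deposited FPKM already hold a scaling between libraries. The 11585 genes that reached 1 FPKM in 3 or more libraries entered limma 3.58.1 in R 4.3.3 as log2(FPKM + 1) (lmFit, eBayes with trend, all 9 libraries in 1 model, two-sided, Benjamini-Hochberg). Python 3.11.15 with pandas 2.3.3 and scipy 1.17.1 was used for the rest. The fit was tested on simulated data.

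The members and the gene lists were chosen with earlier results of these data known. All 8 members were named, with up to 3 rises and 3 falls per list among genes past the threshold without overlap, and the 5 nearest profiles of Axl and Siglec1. Irf3, Ifnb1 and Ifih1 and the genes given only by value were picked after their values were seen.

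Control and LPS libraries of the same number deviated together (r = 0.103, 0.137 and 0.113, each above the limit of 0.1), which pairs them by this limit only, since nothing says what a number marks. LPS + G-CDs libraries were not paired by it with LPS (r = 0.095, 0.0801 and 0.143) or with control (r = 0.28, 0.0575 and 0.653). A planned comparison of member proteins was not made.

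Alternatives were a pseudocount of 0.1, no filter and a filter at 5 FPKM, scaling by TPM, median of ratios or quantiles, a fit of only the 6 libraries compared, eBayes with no trend, voom on reads, the replicate number as a block, and leaving out each library. Removal of the gene-length trend and voom on genes with at least 10 reads in 3 libraries were added after seeing the data.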

Additional observations from a re-analysis of the deposited data

How the results depend on the processing

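The 5 members that passed the filter (Axl, Siglec1, Siglece, Cd33 and Pros1) kept their direction under the 18 alternatives run for each comparison, and Siglece, Cd33 and Pros1 kept their calls in LPS against control (adjusted p at most 0.0036, 0.0011 and 0.047) and in LPS + G-CDs against control (at most 0.033, 0.0008 and 0.019). In LPS + G-CDs against LPS, Siglece was called only with the gene-length trend removed (-0.81, adjusted p = 0.018), and its adjusted p ranged up to 0.58. The differences of Axl and Siglec1 moved by more than the replicate spread under some alternatives, except that of Siglec1 in LPS + G-CDs against LPS (-2.00 to -1.52), and a smaller pseudocount gives more weight to low values by construction. For LPS minus control Axl was 3.93 with a pseudocount of 0.1, 3.12 with TPM, 2.2 with quantile normalization and 4.33 with voom on either choice of genes, and Siglec1 was 4.07 with a pseudocount of 0.1, 3.48 with TPM and 4.27 with voom on either choice. For LPS + G-CDs minus LPS Axl was -2.19, -2.09 and -2.28 with a pseudocount of 0.1, TPM and voom. For LPS + G-CDs minus control, with a pseudocount of 0.1 and with voom, Axl was 1.73 and 2.06 (2.05 with the wider choice of genes) and Siglec1 2.13 and 2.31.

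The 57 calls of LPS + G-CDs against LPS became 25 with a pseudocount of 0.1, 27 with TPM, 25 with the 6 libraries alone and 92 with the length trend removed. With 1 library left out they ranged from 11 to 256 (14, 12 and 21 without LPS replicates 1, 2 and 3, and 256, 11 and 29 without LPS + G-CDs replicates 1, 2 and 3). The calls of LPS + G-CDs against control became 1789 with the 6 libraries alone and 1914 to 3245 with 1 library left out, the lowest without LPS + G-CDs replicate 2. TPM scaling moved the median change of all genes to -0.23 in LPS against control, -0.14 in LPS + G-CDs against LPS and -0.38 in LPS + G-CDs against control, and 24.7%, 59.3% and 19.1% of its calls were higher, beside 50.3%, 50.9% and 50.8%. Of 41 calls of named list genes 29 were kept under every alternative run and 12 were lost under some. The replicate block gave 4104, 53 and 3347 calls in the 3 comparisons and changed no call of a member. In LPS and LPS + G-CDs every library correlated best with its own number, in control and LPS + G-CDs not every one did. Gas6 had at most 1 read and Mertk 0 reads in a library, and Tyro3 had 14 to 58.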
